A study of Mus musculus with 11 samples.

Results

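Binding of 5 transcription factors was mapped around 10 genes of the primitive streak and endoderm in mouse epiblast stem cells (EpiSCs), with and without activin. The genes were T, Eomes, Mixl1, Gsc, Lhx1, Foxa2, Sox17, Gata4, Gata6 and Cer1. A ChIP-seq peak was assigned to a gene when its midpoint lay in the annotated gene body or within 50 kb on either side. By this rule 601 of the 1004445 peaks in the 10 lists belonged to the 10 genes, 297 of them in the EpiSC lists and 304 in the activin-free lists. The genes were taken from 22367 protein-coding genes, and no peak was counted at more than 1 of the 10.

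The cells were a 129/Sv EpiSC line grown with activin at 20 ng/ml and Fgf2 at 10 ng/ml. In each culture, cells were transfected with a plasmid for a factor (ZIC2, OTX2, SOX2, POU5F1 or POU3F1) carrying the biotinylation tag BLRP and for the biotin ligase BirA, the medium was refreshed after 8 h and the cells were fixed after 24 h. For the activin-free cultures activin was removed 18 h before harvest. The tagged factor was thus expressed transiently from a plasmid beside the endogenous protein, and the peaks show where the tagged protein was recovered. Each of the 10 groups held 1 library. Differences between cultures or factors therefore have no replicate check and no test was possible. Read depth is unknown because only peak lists were used. The peak lists held between 62457 peaks (POU5F1, EpiSC) and 126908 peaks (POU5F1, activin-free). The score of a peak is −10 log10 of the p-value of the peak caller and starts at 50 in every list.

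EpiSCs correspond to the epithelial epiblast shortly before or during gastrulation, and they depend on activin, which acts through the Nodal receptors and SMAD2/3. In the embryo, Nodal and Wnt signals induce T and Eomes in the primitive streak, and the strongest Nodal signal in the anterior streak gives rise to the definitive endoderm and the organizer. SOX2, OTX2, ZIC2 and the POU factors are known as regulators of the epiblast and of the anterior neural plate, so their binding at streak and endoderm genes concerns loci of the alternative fates.

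The first set of sequences shows what lay at the middle of strong peaks of each factor. For each factor the highest-scoring EpiSC peak at the 10 genes was taken that had a known binding sequence of that factor within 50 bp of the midpoint and no protein-coding exon in this stretch. Where the EpiSC list held none, the activin-free list was used. The binding sequence is in capitals, on the plus strand of mm9 (NCBIM37). This choice was made after the values were seen, and a peak's midpoint is not its summit. The ZIC2 peak lay 25.4 kb upstream of T (chr17:8601794-8601894), the OTX2 peak 43.2 kb upstream of Gata4 (chr14:63933646-63933746) and the SOX2 peak 14.8 kb from the Sox17 start, beyond its end (chr1:4471650-4471750). The POU5F1 peak lay 45.7 kb upstream of Foxa2 (chr2:147918327-147918427) and is shown for an octamer sequence. The POU3F1 peak lay 3.96 kb upstream of Eomes (chr9:118383321-118383421) and was in the activin-free list only. Its octamer lay inside a longer run of alternating purines and pyrimidines. All of these stretches were intergenic.
ZIC2 at T: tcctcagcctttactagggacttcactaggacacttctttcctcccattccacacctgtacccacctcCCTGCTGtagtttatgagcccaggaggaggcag
OTX2 at Gata4: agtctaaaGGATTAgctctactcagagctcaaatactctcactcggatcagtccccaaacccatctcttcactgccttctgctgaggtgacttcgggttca
SOX2 at Sox17: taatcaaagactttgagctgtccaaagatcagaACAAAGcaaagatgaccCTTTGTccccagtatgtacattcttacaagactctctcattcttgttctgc
POU5F1 at Foxa2: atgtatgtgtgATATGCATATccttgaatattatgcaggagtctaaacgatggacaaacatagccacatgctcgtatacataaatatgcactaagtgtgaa
POU3F1 at Eomes: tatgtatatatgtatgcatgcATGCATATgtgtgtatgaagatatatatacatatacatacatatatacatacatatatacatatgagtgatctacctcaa

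The second set shows sites where peaks of several factors overlapped. A site is the union of overlapping peaks of all 10 lists, so its peaks need not all overlap each other. The 121 bp around the middle of the part covered by the most lists are given. That part was covered by 4 of 6 lists at Eomes and Mixl1, 4 of 4 at Sox17 and 6 of 6 at Lhx1. The stretch printed for Mixl1 lay outside the ZIC2 peaks of its site. Of 9 such sites searched, 1 for each gene except Gata6, the 4 with a match to one of the binding sequences are printed, with the match in capitals. The 5 at T, Gsc, Foxa2, Gata4 and Cer1 had none. The printed sites lay 8.64 kb from the Eomes start, beyond its end (chr9:118395910-118396030), 32.8 kb upstream of Mixl1 within Acbd3 (chr1:182659868-182659988), in an intron of Sox17 (chr1:4483960-4484080) and 43.7 kb from the Lhx1 start within the neighbouring gene Aatf (chr11:84295152-84295272). At the Sox17 site, ZIC2 and OTX2 peaks overlapped in both cultures, and the sequence held GGTAAT on both strands, 3 bp apart.
Site at Eomes: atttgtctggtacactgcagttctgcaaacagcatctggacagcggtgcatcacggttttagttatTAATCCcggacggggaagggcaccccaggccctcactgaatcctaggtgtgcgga
Site at Mixl1: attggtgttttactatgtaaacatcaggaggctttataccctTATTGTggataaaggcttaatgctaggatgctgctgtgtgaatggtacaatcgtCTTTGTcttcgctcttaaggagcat
Site at Sox17: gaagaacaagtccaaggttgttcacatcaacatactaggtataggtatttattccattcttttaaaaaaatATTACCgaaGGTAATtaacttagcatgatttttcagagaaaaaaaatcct
Site at Lhx1: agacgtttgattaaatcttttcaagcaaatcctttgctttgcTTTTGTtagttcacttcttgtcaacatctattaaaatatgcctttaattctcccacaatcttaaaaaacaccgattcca

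ZIC2 and OTX2 gave most of the peaks at the 10 genes. In EpiSCs, the 10 windows held 122 ZIC2, 103 OTX2, 24 SOX2, 30 POU5F1 and 18 POU3F1 peaks. In activin-free culture they held 113 ZIC2, 92 OTX2, 25 SOX2, 47 POU5F1 and 27 POU3F1 peaks. POU3F1 had nearly as many peaks over the genome as ZIC2 but the fewest at these genes among the 5 EpiSC lists. Every gene had at least 1 ZIC2 and 1 OTX2 peak in both cultures, where 93.1% and 93.3% of all protein-coding genes had one in EpiSCs and 92.3% and 95.6% in activin-free culture. SOX2 peaks were found at 9 of the 10 genes in EpiSCs and at 10 in activin-free culture, against 75% and 85.6% of all genes. POU5F1 peaks were found at 10 genes in both cultures, against 77.3% and 89.5% of all genes. POU3F1 peaks were found at 7 genes in EpiSCs and at 9 in activin-free culture, against 47.8% and 53% of all genes. Having a ZIC2 or OTX2 peak within 50 kb is therefore common to nearly all genes, and the genes differed in number and arrangement of peaks.

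Per 100 kb of window, the 10 genes had a median of 11.3 ZIC2 peaks in EpiSCs, compared with 6.80 for all protein-coding genes. OTX2 had medians of 8.60 and 6.21, SOX2 of 2.05 and 1.44, POU5F1 of 2.353 and 1.43, and POU3F1 of 0.970 and 0. Without activin the median of ZIC2 was 9.94 at the 10 genes and 5.86 at all genes. OTX2 had medians of 7.72 and 5.72 there, SOX2 of 1.85 and 2.09, POU5F1 of 4.70 and 2.83, and POU3F1 of 1.93 and 0.655. The median of the 10 genes was thus above that of all genes for every factor in both cultures except SOX2 without activin, where it was below. The range among the genes was wide. ZIC2 density in EpiSCs ran from 2.90 per 100 kb at Cer1 to 16.6 at Gsc, OTX2 density from 1.90 at Sox17 to 15.05 at Gata4, and POU3F1 density from 0 at Eomes, Foxa2 and Gata4 to 4.84 at Cer1. The GC content of the windows, from 41.4% at Cer1 to 48.2% at Gsc, was lowest where ZIC2 density was lowest and highest where it was highest, and its part in the densities was not tested.

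**Figure D1:**
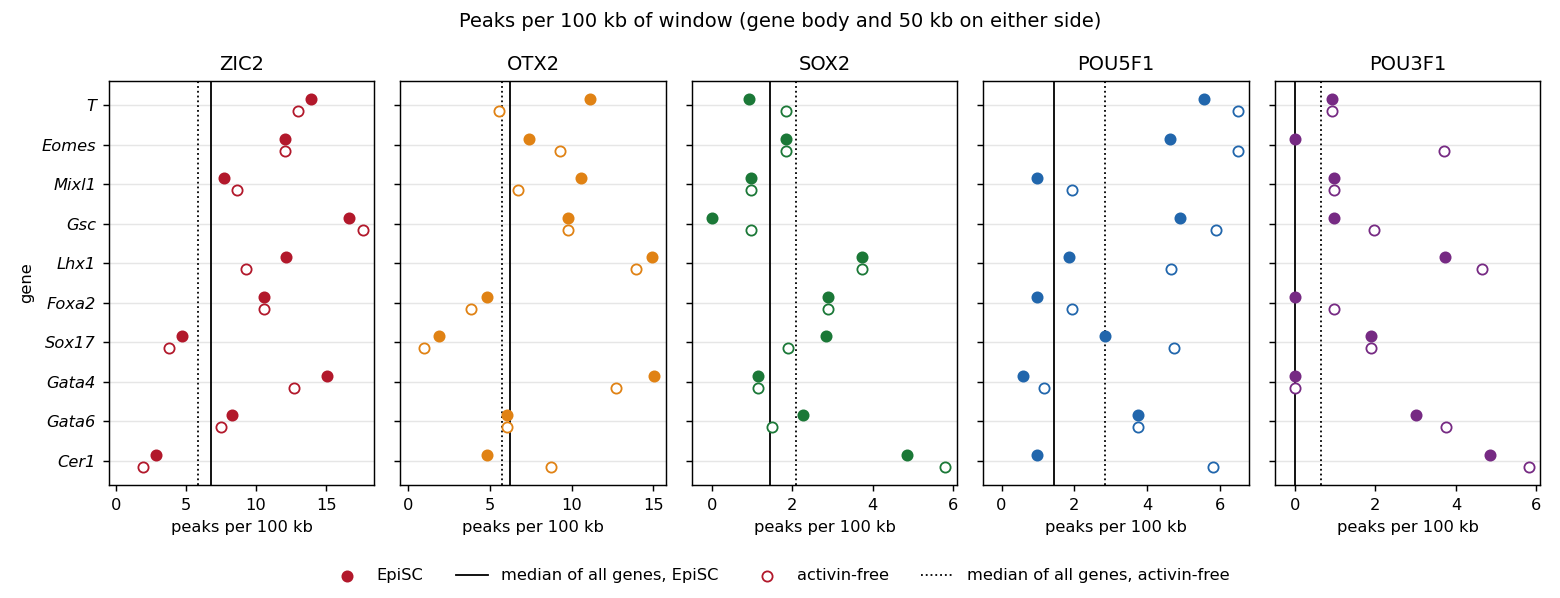
Peaks per 100 kb of window at each of the 10 genes, in 1 panel per factor, with filled points for EpiSC and open points for activin-free culture. Lines mark the median of 22367 protein-coding genes. ZIC2 ran from 2.90 at Cer1 to 16.6 at Gsc in EpiSCs, and POU3F1 was highest at Cer1 with 4.84.

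A ZIC2 peak touched the 1 kb on either side of the gene start at 9 of the 10 genes, in EpiSCs and in activin-free culture alike, and Cer1 was the exception in both. This was the case at 67.6% and 66% of all protein-coding genes. Several of these ZIC2 peaks were among the strongest of their locus. The peak at the T start had a score of 3156 in EpiSCs and 3100 without activin, the peak at the Mixl1 start 2368 and 3100, and the peak at the Lhx1 start 2749 and 3233. A score of 3100 was shared by 7585 peaks of the 10 lists and only 910 peaks were higher, so values near it rank peaks poorly. An OTX2 peak near the gene start was found only at Sox17 in EpiSCs, and at Sox17 and Lhx1 without activin, against 30.2% and 27.1% of all genes. None of the 10 gene starts had a SOX2, POU5F1 or POU3F1 peak in either culture. The shares among all genes were 7.21%, 4.33% and 5.25% in EpiSCs and 11.9%, 9.04% and 6.66% without activin, so few or none were to be counted among 10 genes.

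Beyond the gene start the peaks were spread over the whole window. In EpiSCs, ZIC2 peaks lay at a median distance of 22.8 kb from the gene start, and those of OTX2 at 23.8 kb. The median was 29.1 kb for SOX2, 25.6 kb in the case of POU5F1, and 35.5 kb for POU3F1. The member was the nearest gene start for 90 of 122 ZIC2 peaks (73.8%), 61 of 103 OTX2 peaks (59.2%), 17 of 24 SOX2 peaks (70.8%) and 21 of 30 POU5F1 peaks (70%). For POU3F1 this held for 7 of 18 peaks (38.9%). The windows of Eomes, Mixl1, Gsc, Lhx1 and Cer1 held 1 other protein-coding gene start each (Golga4, Acbd3, Gm10000, Aatf and Zdhhc21) and that of Gata4 held 2 (Fdft1 and Neil2). Peaks in or near those genes cannot be told apart from peaks that act on the member.

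T (Brachyury; chr17:8627288-8635361) encodes the T-box factor of the streak, nascent mesoderm and notochord. In EpiSCs its window held 15 ZIC2, 12 OTX2, 1 SOX2, 6 POU5F1 and 1 POU3F1 peaks, and in activin-free culture 14, 6, 2, 7 and 1. T had the highest density of POU5F1 peaks among the 10 genes in EpiSCs, at percentile 95.8 of all protein-coding genes. The 3 strongest POU5F1 peaks lay 22.4 and 15.8 kb upstream and 20.4 kb downstream of the start, with scores of 941, 884 and 785 in EpiSCs and 2965, 3132 and 2833 without activin. All 3 held an alternating stretch of purines and pyrimidines, 20 bp or longer, within 100 bp of the midpoint. SOX2 was sparse at T, with a single EpiSC peak 27.6 kb upstream whose score was 66.5 in EpiSCs and 169 without activin. The strongest OTX2 peak lay 4.75 kb upstream, with a score of 396 in EpiSCs and 351 without activin, and overlapped a ZIC2 peak of 1601 and 2753.

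At T, 6 of the 12 OTX2 peaks of EpiSCs had no overlapping OTX2 peak in activin-free culture, and this was the only pair of gene and factor with at least 2 times the peaks in EpiSCs and at least 3 peaks there. For OTX2 this rule was met by 7.48% of all protein-coding genes, so 1 of 10 genes is no result about them. These 6 peaks lay 43.7, 24.3 and 23.2 kb upstream and 10.0, 21.1 and 43.5 kb downstream of the start. Their EpiSC scores were 167, 61.1, 61.2, 120, 61.6 and 67.4, so 4 of the 6 were close to the lowest listed score. The other 6 OTX2 peaks had scores of 72.0 to 396 in EpiSCs and 96.8 to 351 without activin. No OTX2 peak at T was found only without activin. With the lowest score set to 100, OTX2 at T did not meet the rule. T had 3 sites with peaks of 3 factors. The highest-scoring of them, 20.9 kb downstream, held ZIC2, OTX2 and POU5F1 peaks (chr17:8646891-8649325), of which the OTX2 peak was in the EpiSC list only.

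Eomes (chr9:118387330-118395250) encodes the T-box factor needed for endoderm and for the exit of mesoderm from the streak. Its window held 13 ZIC2, 8 OTX2, 2 SOX2, 5 POU5F1 and 0 POU3F1 peaks in EpiSCs, and 13, 10, 2, 7 and 4 in activin-free culture. The strongest ZIC2 peak lay in an exon 0.962 kb from the start, with a score of 1937 in EpiSCs and 2222 without activin. The strongest SOX2 peak lay 45.4 kb upstream at 167 and 248 and overlapped ZIC2 and POU5F1 peaks in EpiSCs. The strongest OTX2 peak, 8.96 kb from the start, had scores of 432 and 386 and belonged to the site of ZIC2, OTX2 and SOX2 peaks in both cultures (chr9:118394615-118399383). This site is a chain of overlapping peaks 4769 bp long, and at most 4 of its 6 lists covered any single point of it. Its SOX2 and OTX2 peaks did not overlap each other in either culture.

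The 4 POU3F1 peaks at Eomes were all found in activin-free culture, which met the rule of at least 2 times the peaks with at least 3 in the higher culture. This rule was met by 1.51% of all protein-coding genes for POU3F1. The strongest of the 4, with a score of 295, lay 3.96 kb upstream over a POU5F1 peak that was in both lists, at 406 in EpiSCs and 1632 without activin. The other 3 lay 42.3, 49.6 and 54.3 kb from the start within Golga4 and had scores of 53.2, 104 and 72.2. The peak upstream of Eomes held both an octamer and an alternating stretch. With the lowest score set to 100, POU3F1 at Eomes did not meet the rule.

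Mixl1 (chr1:182623174-182627165) encodes a homeodomain factor of the streak and endoderm and is a known target of Nodal signalling. The window held 8 ZIC2, 11 OTX2, 1 SOX2, 1 POU5F1 and 1 POU3F1 peaks in EpiSCs, and 9, 7, 1, 2 and 1 in activin-free culture. Besides the peak at the gene start, ZIC2 had a peak of like height 29.0 kb upstream, within the neighbouring gene Acbd3, at 2605 in EpiSCs and 3100 without activin. Mixl1 was the 1 gene of the 10 at which no ZIC2 peak was overlapped by OTX2 in EpiSCs. The strongest OTX2 peak lay 26.9 kb upstream at 501 and 906. Of the 11 OTX2 peaks in EpiSCs, 3 had no overlapping peak without activin. The single POU5F1 peak of EpiSCs lay 18.0 kb from the start in Lin9, at 833 and 3100, and the POU3F1 peak lay 28.4 kb away at 253 and 159.

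Gsc (chr12:105709419-105711537), the homeobox gene of the organizer and anterior streak, had the highest ZIC2 density of the 10 genes. Its window held 17 ZIC2, 10 OTX2, 0 SOX2, 5 POU5F1 and 1 POU3F1 peaks in EpiSCs, and 18, 10, 1, 6 and 2 in activin-free culture. The POU5F1 density stood at percentile 93.6 of all genes in EpiSCs and 81.2 without activin. For all POU5F1 peaks in both cultures, however, the nearest gene start was that of another gene, and for the strongest of each culture it was Serpina3n. In EpiSCs, Gsc was the nearest start for 6 of the 17 ZIC2 and 2 of the 10 OTX2 peaks. Of the 5 POU5F1 peaks in EpiSCs, 4 held an alternating stretch, and all 5 had higher scores without activin. The strongest ZIC2 peak lay in the gene body at 1643 and 1457. The strongest POU5F1 peak of EpiSCs lay 47.9 kb from the start at 235 and 986, and the strongest without activin 46.7 kb from the start at 137 and 1208. The strongest OTX2 peak lay 4.59 kb upstream with scores of 474 and 1015. It formed part of a site at which OTX2, POU5F1 and POU3F1 peaks were found in both cultures and ZIC2 and SOX2 peaks in activin-free culture only (chr12:105715058-105718064). This site is one of only 2 at the 10 genes that held peaks of all 5 factors. It was 3007 bp long, and at most 6 of its 8 lists covered any single point of it. It lay near Gm10000, a gene model upstream of Gsc.

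Lhx1 (chr11:84331479-84338923), a LIM homeodomain gene of the anterior streak, organizer and head mesendoderm, was rich in OTX2 peaks. Its window held 13 ZIC2, 16 OTX2, 4 SOX2, 2 POU5F1 and 4 POU3F1 peaks in EpiSCs, and 10, 15, 4, 5 and 5 in activin-free culture. OTX2 density stood at percentile 93.7 of all genes in EpiSCs and 96.2 without activin. The strongest OTX2 peak of all members in EpiSCs lay 14.6 kb upstream of Lhx1, with scores of 683 and 808, and overlapped a ZIC2 peak. In both cultures 6 ZIC2 peaks at Lhx1 were overlapped by OTX2. ZIC2 and OTX2 peaks lay on both sides of the start, whereas all POU5F1 and POU3F1 peaks lay downstream, within Aatf, between 21.8 and 56.1 kb from the start.

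The downstream group at Lhx1 held a site of OTX2, SOX2, POU5F1 and POU3F1 peaks 43.7 kb from the start (chr11:84293152-84297731). There the POU3F1 peak had a score of 1317 in EpiSCs, and the strongest of 2 POU3F1 peaks over it scored 626 without activin. The POU5F1 peak scored 690 in EpiSCs and 2959 without activin. SOX2 was listed there in EpiSCs only, at 71.2, and OTX2 in activin-free culture only, at 87.3. A second POU5F1 peak, 28.9 kb from the start, scored 459 and 2588 and overlapped 2 SOX2 peaks in both cultures. The other 3 POU5F1 peaks of activin-free culture, with scores of 52.5, 134 and 276, had no EpiSC counterpart. Lhx1 thereby met the rule for at least 2 times the POU5F1 peaks without activin.

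**Figure D2:**
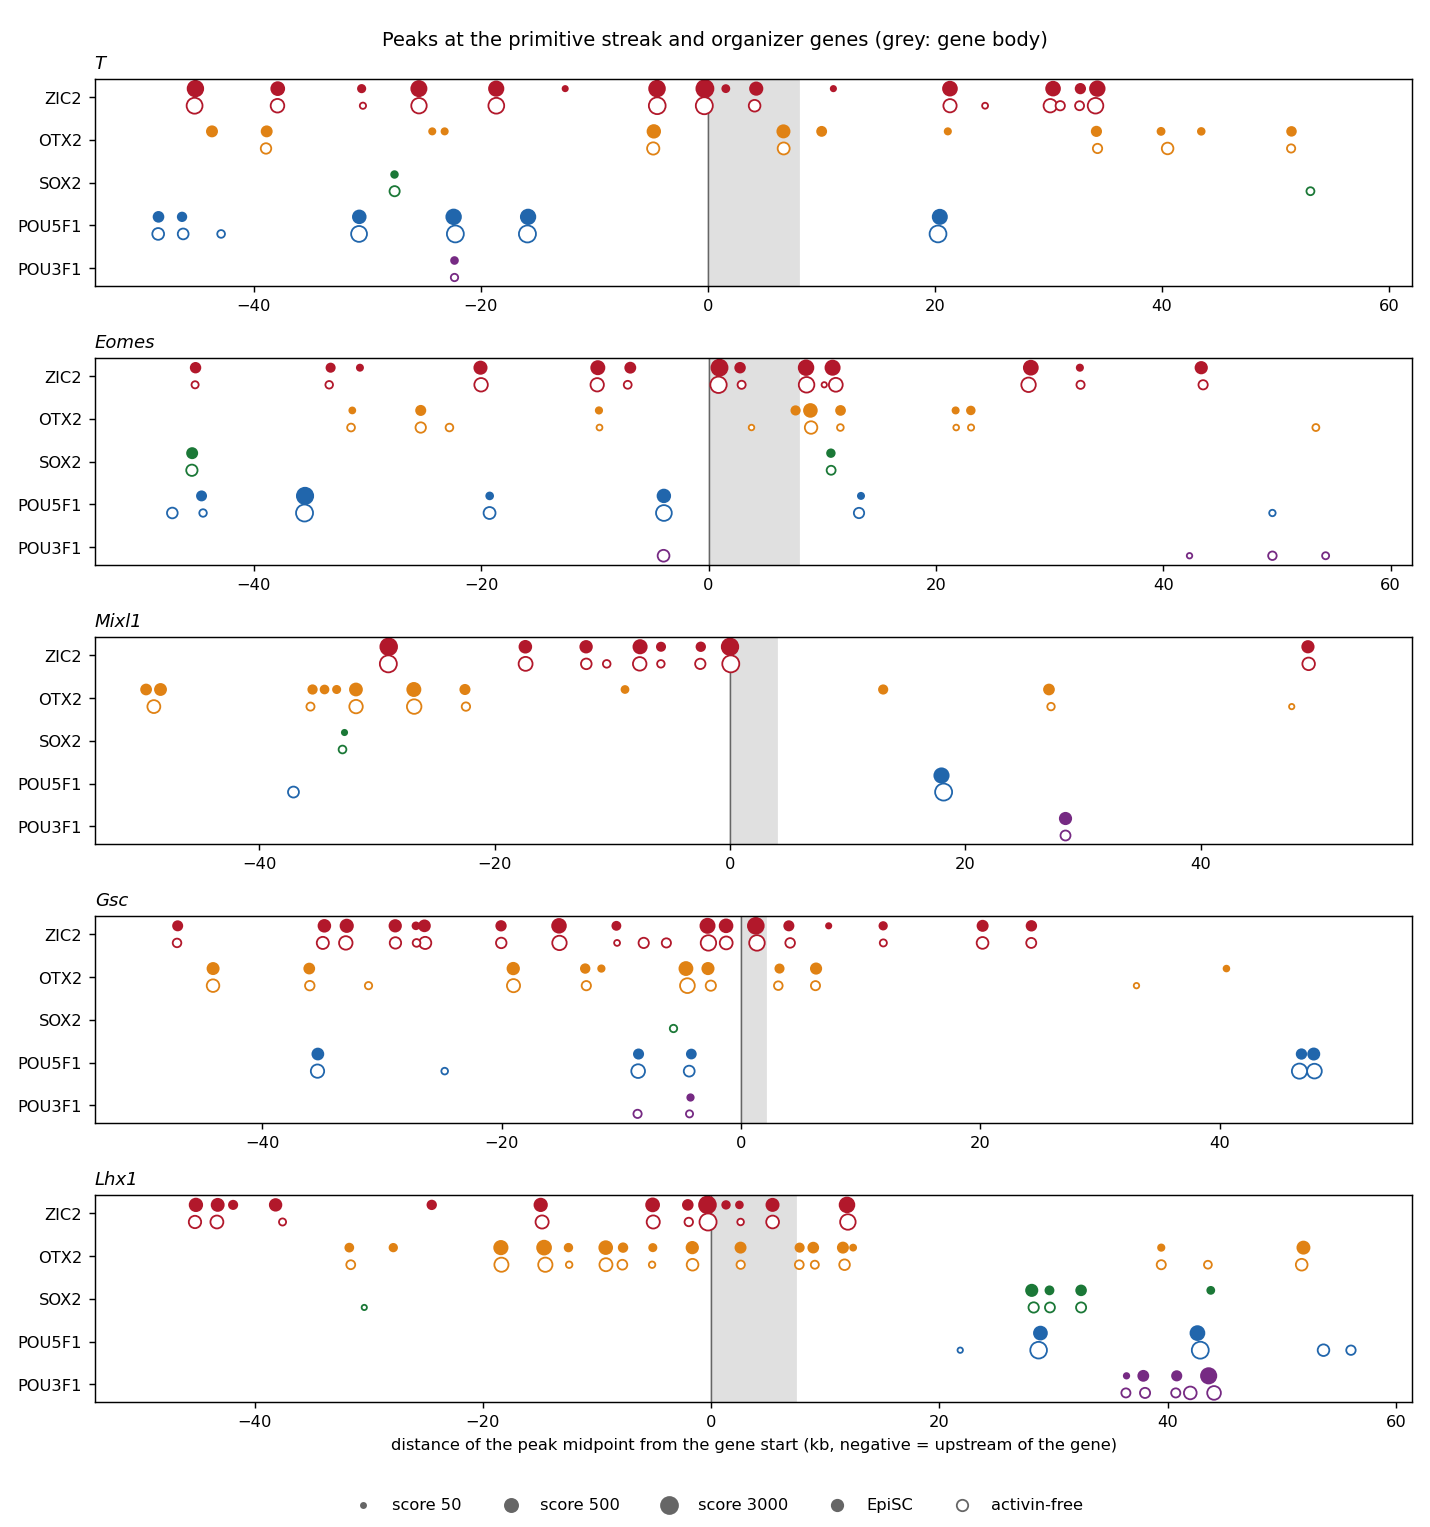
Peaks of the 5 factors at T, Eomes, Mixl1, Gsc and Lhx1 by distance of the midpoint from the gene start in kb, with filled circles for EpiSC, open circles for activin-free culture, circle area growing with the log of the score, and the gene body in grey. OTX2 peaks at T without an activin-free partner lie at 43.7, 24.3 and 23.2 kb upstream and 10.0, 21.1 and 43.5 kb downstream, and POU peaks at Lhx1 lie only downstream.

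Foxa2 (chr2:147868613-147872705) encodes the forkhead factor of the node, notochord and definitive endoderm. Its window held 11 ZIC2, 5 OTX2, 3 SOX2, 1 POU5F1 and 0 POU3F1 peaks in EpiSCs, and 11, 4, 3, 2 and 1 in activin-free culture. ZIC2 peaks formed a row over the gene, with the 5 highest EpiSC scores between 6.37 kb upstream and 24.9 kb downstream. The scores of these 5 peaks, in order from upstream to downstream, were 937, 1152, 1038, 1259 and 1028 in EpiSCs and 1749, 1970, 841, 1613 and 1870 without activin. All but 1 of the 5 were therefore higher without activin. The strongest OTX2 peaks, with EpiSC scores of 450.8 and 418, lay apart from these, 17.3 and 20.8 kb upstream. The only overlap of ZIC2 with OTX2 lay 11.8 kb downstream (chr2:147859530-147861356), where the 2 ZIC2 peaks scored 118 and 111 and the OTX2 peak 61.8 in EpiSCs. The SOX2 peaks were weak, from 56.6 to 61.5 in EpiSCs. The POU5F1 peak with the octamer printed above scored 281 and 1302.

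Sox17 (chr1:4481009-4486494), which encodes the SOX factor of definitive and primitive endoderm, had few ZIC2 and OTX2 peaks. Its window held 5 ZIC2, 2 OTX2, 3 SOX2, 3 POU5F1 and 2 POU3F1 peaks in EpiSCs, and 4, 1, 2, 5 and 2 in activin-free culture. OTX2 density stood at percentile 15.6 of all genes in EpiSCs and 6.38 without activin. The single OTX2 peak found in both cultures had scores of 392 and 377 and overlapped the strongest ZIC2 peak of the locus, at 1879 and 2105, in the intron whose sequence is printed above. This site spanned chr1:4481516-4485881. The strongest SOX2 peak lay 14.8 kb from the start with scores of 261 and 473. POU5F1 and POU3F1 peaks overlapped 37.6 kb upstream, with POU5F1 at 381 and 1801 and POU3F1 at 302 and 335.

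Gata4 (chr14:63817759-63890529), a zinc-finger factor of extra-embryonic and definitive endoderm and of the heart, had the longest window, 172771 bp, and the most peaks. It held 26 ZIC2, 26 OTX2, 2 SOX2, 1 POU5F1 and 0 POU3F1 peaks in EpiSCs, and 22, 22, 2, 2 and 0 in activin-free culture. Per 100 kb, OTX2 stood at percentile 94.0 and 93.7 of all genes and ZIC2 at 74.0 and 72.3. Of the 26 ZIC2 peaks in EpiSCs, 10 were overlapped by OTX2, and 7 of the 22 in activin-free culture were. The strongest ZIC2 peak of EpiSCs lay in an intron 25.4 kb from the start at 1589 and 1677. The strongest OTX2 peak of EpiSCs lay 95.7 kb from the start within Fdft1 at 557 and 775. POU factors were nearly absent from this window, with 1 POU5F1 peak of score 75 in EpiSCs that scored 264 without activin and a second of 56.8 found only without activin. A site of ZIC2, OTX2 and SOX2 peaks lay in an intron 2.24 kb from the start (chr14:63887817-63889131), with SOX2 in EpiSCs only. No POU3F1 peak was listed at Gata4 in either culture, and with peak lists alone this means only that no peak passed the caller's threshold.

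Gata6 (chr18:11052508-11085633), which encodes another GATA factor of the endoderm, had more POU peaks than Gata4. Its window held 11 ZIC2, 8 OTX2, 3 SOX2, 5 POU5F1 and 4 POU3F1 peaks in EpiSCs, and 10, 8, 2, 5 and 5 in activin-free culture. POU5F1 density stood at percentile 86.7 of all genes in EpiSCs and 62.4 without activin, and POU3F1 density at 78.2 and 81.8. Of the 5 POU5F1 peaks, 4 were overlapped by POU3F1 in each culture, which was 4 of the 8 such peaks at the 10 genes in EpiSCs and 4 of the 13 without activin. The strongest ZIC2 peak lay in an intron 1.14 kb from the start at 2526 and 2024. Upstream of the gene lay the strongest OTX2 peak of EpiSCs, at 227 and 182, and the strongest SOX2 peak, at 282 and 235.

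Within Gata6, a site 7.48 kb from the start held peaks of all 5 factors in all 10 lists (chr18:11057041-11062315), the only such site at the 10 genes. This site is a chain of overlapping peaks 5275 bp long. At most 6 of the 10 lists covered any single point of it, so its peaks did not all overlap each other. Across it ZIC2 reached a score of 432 in EpiSCs and 487 without activin, OTX2 52.8 and 65.5, and SOX2 68.3 and 69.3. POU5F1 reached 346 and 2345 and POU3F1 reached 470 and 489, so that the scores of POU5F1 differed most. OTX2 and SOX2 were thus close to the lowest listed score there, and the site rests mainly on ZIC2 and the POU factors. A second site, 72.8 kb from the start and beyond the gene end, held ZIC2, OTX2, POU5F1 and POU3F1 peaks in both cultures (chr18:11124432-11128358). Its POU3F1 peak scored 626 in EpiSCs and 1786 without activin, and its POU5F1 peak 205 and 1679.

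Cer1 (chr4:82527655-82531052) encodes Cerberus 1, a secreted antagonist of Nodal, BMP and Wnt made by the anterior visceral and definitive endoderm. It differed from the other 9 genes in having no ZIC2 peak at its start and the lowest ZIC2 density, at percentile 27.6 in EpiSCs and 22.0 without activin. Its window held 3 ZIC2, 5 OTX2, 5 SOX2, 1 POU5F1 and 5 POU3F1 peaks in EpiSCs, and 2, 9, 6, 6 and 6 in activin-free culture. SOX2 density stood at percentile 89.8 and 88.2 of all genes and POU3F1 density at 83.97 and 88.6. All POU3F1 peaks lay downstream, from 31.2 to 47.7 kb from the start, within Zdhhc21, with EpiSC scores of 141 to 452. The highest POU3F1 score without activin was 1090. OTX2 was strongest 19.7 kb from the start, at 348 and 610. A site of ZIC2, OTX2, SOX2 and POU3F1 peaks in both cultures lay 35.5 kb from the start (chr4:82493770-82498348), where the ZIC2 peak scored 691 and 758. It was 4579 bp long, and at most 6 of its 8 lists covered any single point of it.

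Cer1 had more peaks without activin than in EpiSCs, 29 against 19. Of the 29, 11 had no EpiSC counterpart, and these were 5 POU5F1, 4 OTX2 and 2 SOX2 peaks. The single POU5F1 peak of EpiSCs lay 12.3 kb from the start at 61.2 and 112. The 5 POU5F1 peaks without a counterpart had scores of 149, 166, 120, 80.6 and 110, and the 4 OTX2 peaks had scores of 55.02, 65.4, 89.98 and 92.9. The 2 SOX2 peaks scored 79.8 and 208, the latter 8.02 kb upstream of the start. Most of these peaks were therefore weak, and a POU5F1 peak in the intron of Cer1, 1.62 kb from the start, was listed at 110 in activin-free culture only.

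**Figure D3:**
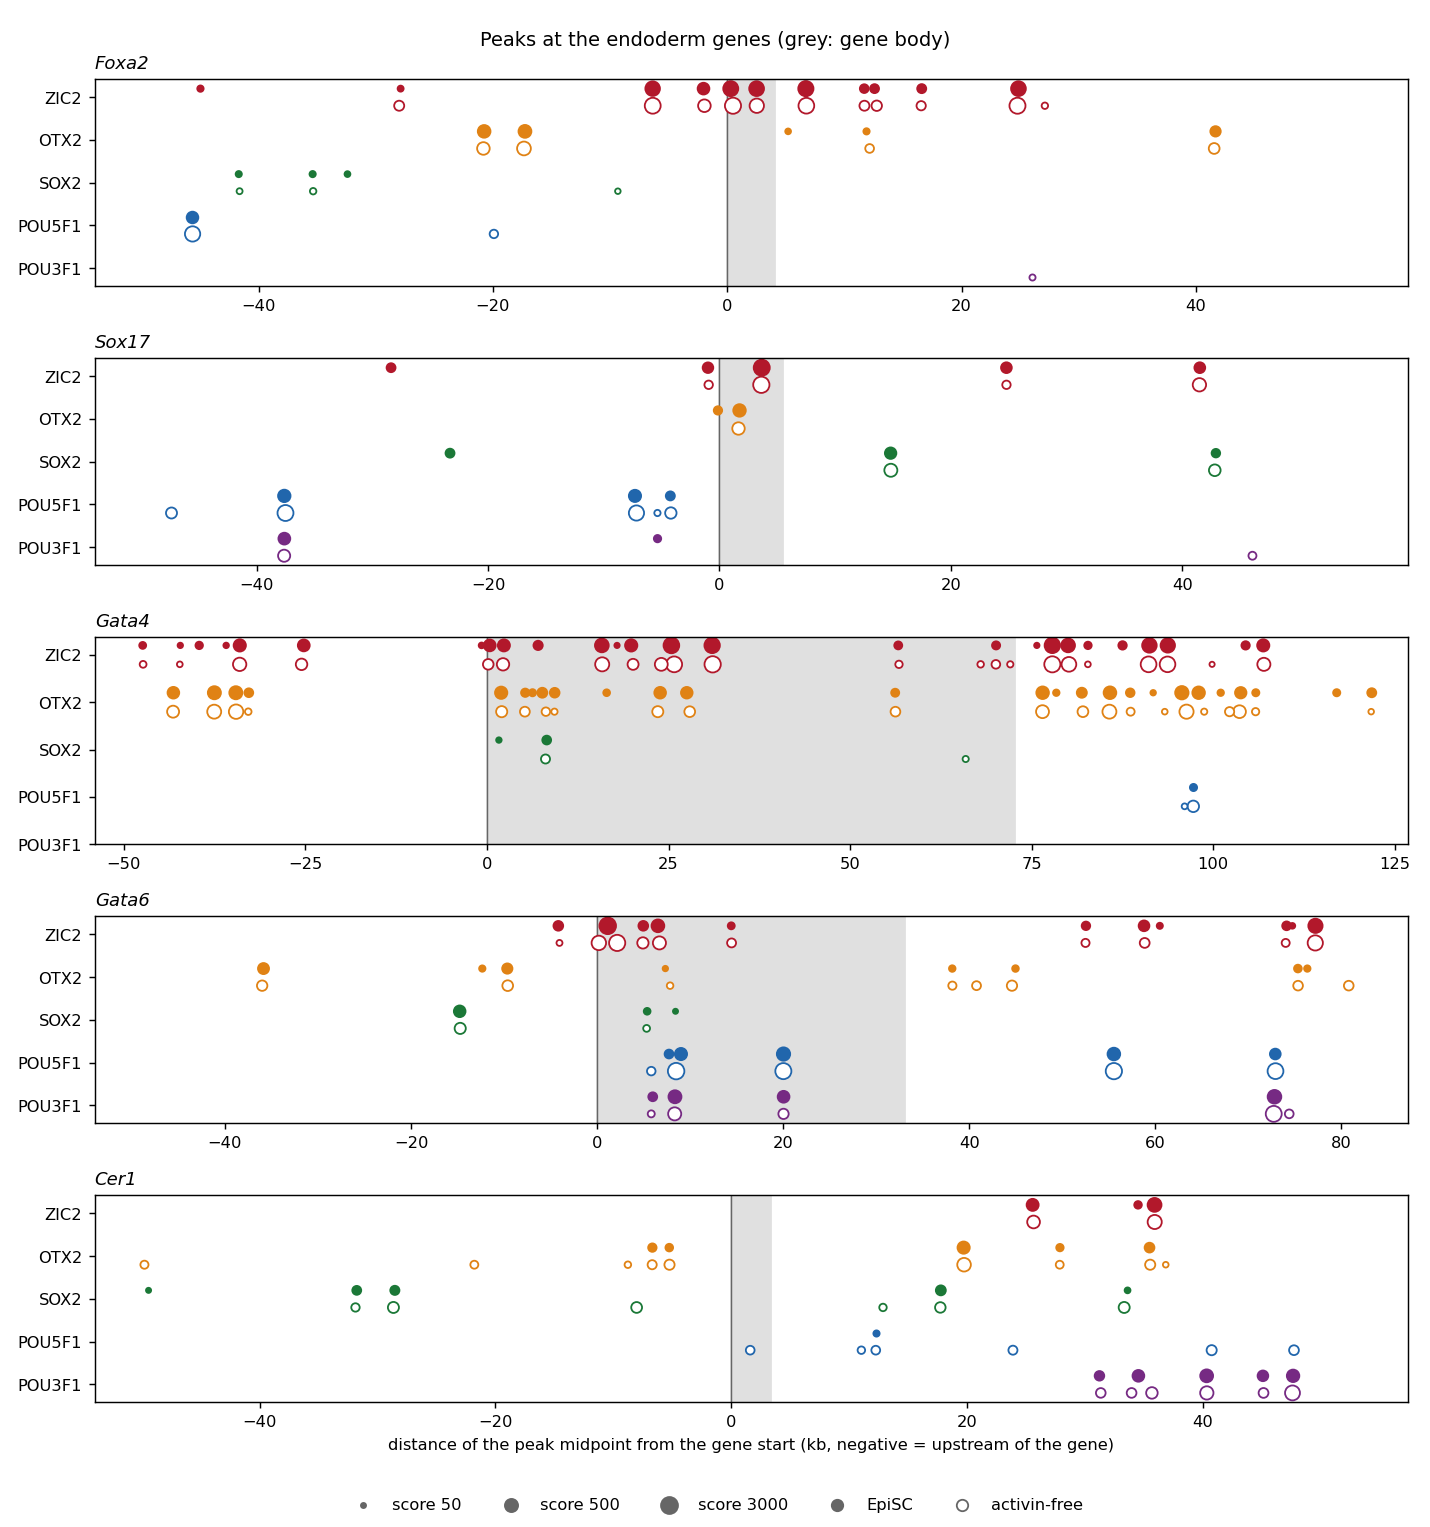
Peaks of the 5 factors at Foxa2, Sox17, Gata4, Gata6 and Cer1 by distance of the midpoint from the gene start in kb, with filled circles for EpiSC, open circles for activin-free culture, circle area growing with the log of the score, and the gene body in grey. Gata4 shows 26 ZIC2 and 26 OTX2 peaks in EpiSCs with no POU3F1 peak, and Cer1 shows POU3F1 peaks from 31.2 to 47.7 kb downstream and no ZIC2 peak at its start.

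Among the pairs of factors, ZIC2 with OTX2 had the largest number of overlapping peaks at the 10 genes in both cultures. Overlap was counted from 1 shared bp, and the intervals are 95% Wilson intervals, which cover counting error only. In EpiSCs, 31 of 122 ZIC2 peaks were overlapped by OTX2, a share of 25.4% (18.5 to 33.8%), compared with 14.8% over the whole ZIC2 list and 15.7% over ZIC2 peaks in the windows of all protein-coding genes. In activin-free culture it was 26 of 113, or 23.0% (16.2 to 31.6%), compared with 12.7% and 13.2%. The intervals of the 10 genes lay above both shares, but they treat peaks grouped in 10 windows as independent. The overlap was found at 9 genes in each culture, in EpiSCs at all but Mixl1 and in activin-free culture at all but Gata6, where 69.1% and 64.7% of all protein-coding genes had at least 1 such peak. Gata4 gave 10 of the 31 in EpiSCs and Lhx1 gave 6, and without activin they gave 7 and 6 of the 26. The difference from the shares over all peaks therefore rested largely on Gata4 and Lhx1, and is not a trait of all 10 genes.

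POU5F1 peaks were overlapped by POU3F1 less often at the 10 genes than over the whole list, which did not hold for POU3F1 peaks overlapped by POU5F1. Of the 30 POU5F1 peaks in EpiSCs, 8 were overlapped by POU3F1, a share of 26.7% (14.2 to 44.4%), compared with 51.7% over the whole POU5F1 list. In activin-free culture it was 13 of 47, or 27.7% (16.9 to 41.8%), compared with 46.3%. The whole list includes the gene-sparse domains that the paper describes as rich in POU3F1. The share over the windows of all protein-coding genes was not computed for this pair, so the lower share may not be particular to the 10 genes. From the side of POU3F1, 7 of 18 peaks in EpiSCs were overlapped by POU5F1 (38.9%, 20.3 to 61.4%), compared with 28.0% over the whole list, and 14 of 27 without activin (51.9%, 34.0 to 69.3%), compared with 54.6%. The 8 POU5F1 peaks lay at 5 genes (T, Gsc, Sox17, Gata6 and Lhx1) and the 13 at 7 genes, with Eomes and Cer1 added, where 34.4% and 43% of all protein-coding genes had such a peak. POU5F1 peaks at the 10 genes were instead overlapped by ZIC2 in 20.0% (9.51 to 37.3%) in EpiSCs and 14.9% (7.41 to 27.7%) without activin, compared with 5.26% and 3.48% over the whole list. These were 6 peaks at T, Eomes, Gsc and Foxa2 in EpiSCs and 7 peaks at T, Gsc and Gata6 without activin. The windows are rich in ZIC2 peaks, and the part of that richness in this share was not tested.

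Overlaps of SOX2 with the other factors rested on few peaks. In EpiSCs, 5 of 24 SOX2 peaks were overlapped by POU5F1, a share of 20.8% (9.24 to 40.5%), compared with 8.00% over the whole list, and they lay at Eomes, Gata6 and Lhx1. In activin-free culture it was 3 of 25, or 12% (4.17 to 29.96%), compared with 14.7%. Of the 103 OTX2 peaks of EpiSCs, 4 were overlapped by SOX2 (3.88%, 1.52 to 9.56%), compared with 7.58%. Of the 252 sites at the 10 genes, 199 held 1 factor, 38 held 2, 10 held 3, 3 held 4 and 2 held all 5, so that most sites held peaks of a single factor.

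**Figure D4:**
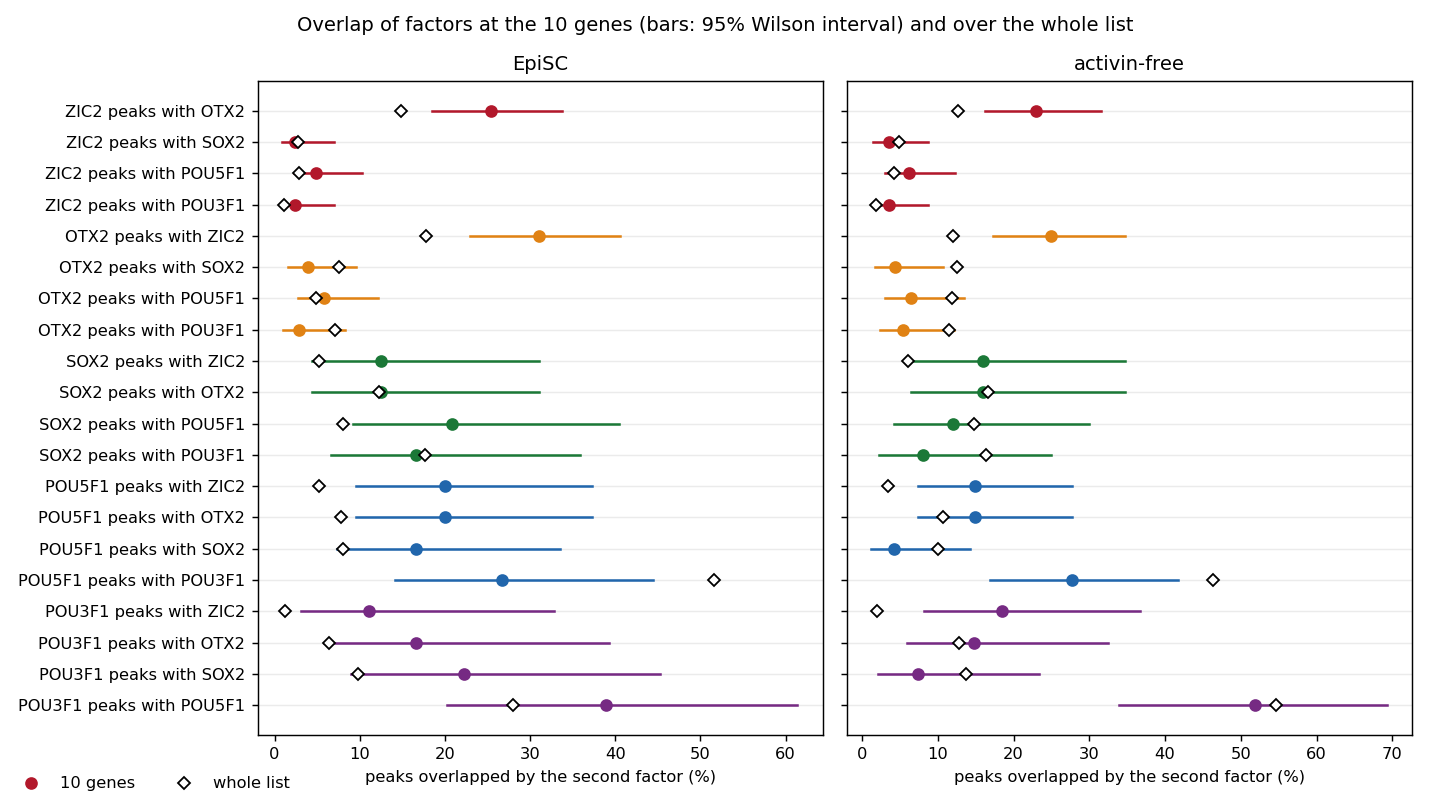
Share of peaks of the first factor overlapped by the second, in percent, for the 20 ordered pairs in EpiSC (left) and activin-free culture (right). Circles are the 10 genes with 95% Wilson intervals and diamonds the whole list. ZIC2 peaks with OTX2 (25.4% against 14.8% in EpiSCs) lie above the whole list and POU5F1 peaks with POU3F1 (26.7% against 51.7%) below it.

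Most peaks at the 10 genes were found in both cultures. Of the 297 EpiSC peaks, 245 were overlapped by a peak of the same factor without activin, a share of 82.5% (77.8 to 86.4%). By gene the share ran from 72.7% at Gata4 (40 of 55) to 92.9% at Eomes (26 of 28). By factor it was 101 of 122 ZIC2 peaks (82.8%, 75.1 to 88.5%), 79 of 103 OTX2 peaks (76.7%, 67.7 to 83.8%), and 18 of 24 SOX2 peaks (75%, 55.1 to 88.0%). POU5F1 had a counterpart for all 30 of its peaks (100%, 88.6 to 100%), and POU3F1 for 17 of 18 (94.4%, 74.2 to 99.0%). Over the whole lists the shares were 78.9%, 78.1%, 77.6%, 98.3% and 82.6%, all within these intervals. Of the 304 activin-free peaks, 248 were overlapped by an EpiSC peak (81.6%, 76.8 to 85.5%), and Cer1 had the lowest share, 18 of 29 (62.1%, 44.0 to 77.3%). In this direction the whole-list share lay outside the interval of the 10 genes for 3 factors. OTX2 had a counterpart for 83.7% of its peaks (74.8 to 89.9%), compared with 67.5%, and POU5F1 for 61.7% (47.4 to 74.2%), compared with 47.1%. POU3F1 had one for 70.4% (51.5 to 84.1%), compared with 86.8%, and 4 of its 8 peaks without one lay at Eomes. These intervals treat peaks grouped in 10 windows as independent. The shares over the windows of all protein-coding genes were not computed, so the differences may not be particular to the 10 genes.

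Peaks without a counterpart had low scores. The median score of EpiSC ZIC2 peaks was 330 with and 62.8 without an activin-free counterpart, and that of OTX2 peaks 157 and 65.9. Without activin, the 29 POU5F1 peaks with an EpiSC counterpart had a median of 1302 and the 18 without one had a median of 107 and a highest score of 276. The highest score of any peak without a counterpart was that of the POU3F1 peak upstream of Eomes, at 295. All peaks at the 10 genes with a score above that value were listed in both cultures.

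The scores of shared peaks differed between cultures mainly for POU5F1. The median ratio of the activin-free to the EpiSC score was 3.67 for the 30 POU5F1 peaks, with 29 of the 30 above 1, compared with 3.83 over the whole list. The 1 peak below 1 lay 44.6 kb upstream of Eomes, at 123 and 80.5. By gene the POU5F1 median ran from 1.83 at Cer1, with 1 peak, to 6.78 at Gata6, with 5. The median ratio was 1.14 for ZIC2 and 1.13 for OTX2, compared with 1.09 and 1.35 over the whole lists. For SOX2 it was 1.31 and for POU3F1 1.04, compared with 1.35 and 1.13. POU5F1 thus had the highest ratio at the 10 genes and over the whole lists alike. Scores rise with sequencing depth, which is unknown here, and the activin-free POU5F1 list was also the longer one, so depth and culture cannot be told apart.

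**Figure D5:**
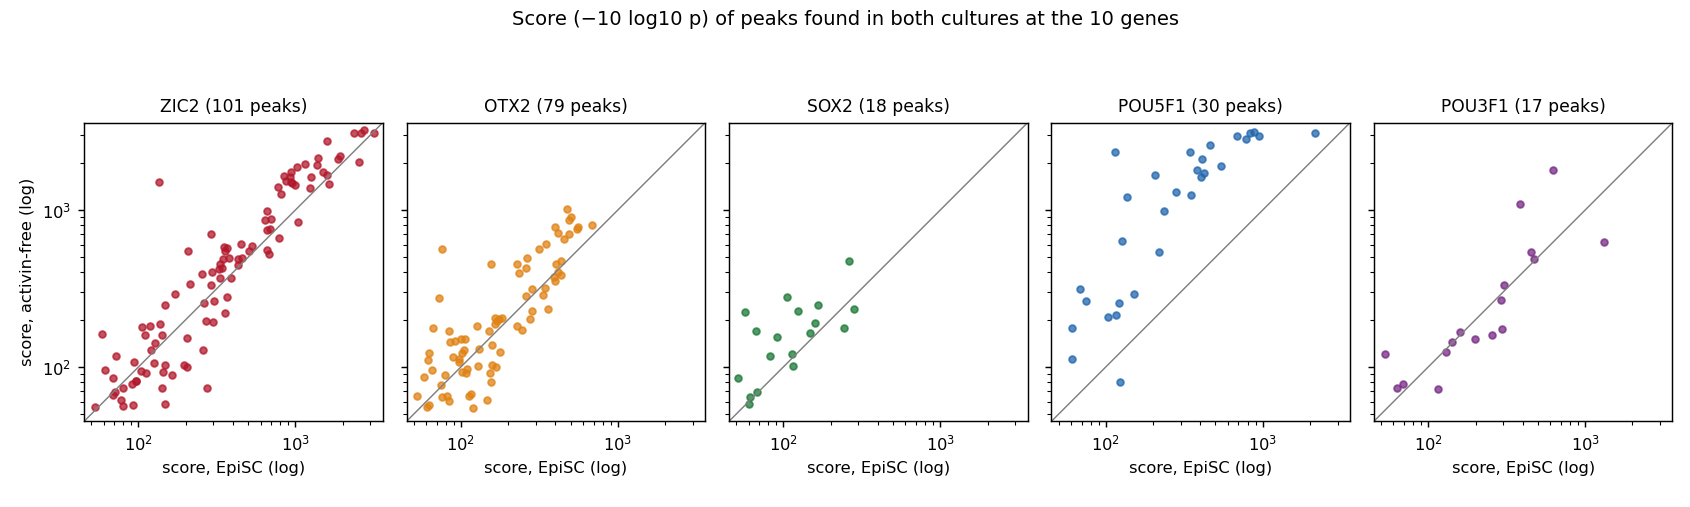
Score in activin-free culture against score in EpiSC, both −10 log10 p on log axes, for peaks of the 10 genes found in both cultures, in 1 panel per factor, with the line of equal scores. All but 1 of the 30 POU5F1 peaks lie above the line, with a median ratio of 3.67, whereas the ZIC2 median is 1.14.

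The number of peaks per gene was compared between the cultures by the rule of at least 2 times the peaks and at least 3 in the higher culture. Of the 50 pairs of gene and factor, 3 were higher without activin and 1 was higher in EpiSCs. POU5F1 was higher without activin at Lhx1 (2 and 5 peaks) and Cer1 (1 and 6 peaks), which is 2 of 10 genes against 33.4% of all protein-coding genes and no result about the 10 genes. POU3F1 was higher without activin at Eomes (0 and 4), which is 1 of 10 genes against 1.51% of all genes. This single call, among 50 pairs, was lost within 10 kb and with a score of at least 100, so it is weak. OTX2 was higher in EpiSCs at T (12 and 6), which is 1 of 10 genes against 7.48% of all genes and again no result about the 10 genes. With peak counts divided by the list sizes, the balance turned, with 2 pairs higher without activin and 4 higher in EpiSCs. POU5F1 at Lhx1 then no longer met the rule, and SOX2 at Sox17 and Gata6 and POU5F1 at Gata6 met it in EpiSCs.

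None of the 10 genes met the rule in the other comparisons. The share of all genes that did was 0.438% for ZIC2 higher without activin and 2.67% for ZIC2 higher in EpiSCs, 6.63% for OTX2 higher without activin, 16.9% and 1.73% for SOX2, 0.0626% for POU5F1 higher in EpiSCs and 2.45% for POU3F1 higher in EpiSCs. With these backgrounds, at most 1 or 2 of 10 genes would be counted, and a count of 0 is no result about the genes.

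The binding sequences of the factors were searched on both strands within 100 bp of the peak midpoint. GGATTA, bound by OTX2, was found at 14 of the 103 OTX2 peaks of EpiSCs (13.6%, 8.27 to 21.5%), compared with 23.6% over the whole list, and at 12 of the 92 without activin (13.04%, 7.62 to 21.4%), compared with 21.8%. GGTAAT, also bound by OTX2, was found at 3 OTX2 peaks of EpiSCs (2.91%, 0.995 to 8.22%), compared with 7.22%. Without activin it was found at 5 of the 92 (5.43%, 2.34 to 12.1%), compared with 7.47%. For SOX2 the sequence ACAAAA was searched together with its variants in the last 2 positions, which were ACAAAG, then ACAATA and finally ACAATG. One of them was found at 23 of 24 SOX2 peaks of EpiSCs (95.8%), compared with 85.9%, and at 19 of 25 without activin (76%), compared with 85.1%. The octamers ATGCAAAT and ATGCATAT, bound by POU factors, were found at 6 of 30 POU5F1 peaks (20%, whole list 18.6%) and 2 of 18 POU3F1 peaks (11.1%, whole list 8.84%). CAGCAGG, bound by ZIC2, was found at 25 of 122 ZIC2 peaks of EpiSCs (20.5%), compared with 19.1%, and at 31 of 113 without activin (27.4%), compared with 21.0%. AATCCACA and AATACACA, bound by FOXH1, the partner of SMAD2/3, were found at 3 of 122 ZIC2 peaks (2.46%, whole list 1.18%) and 1 of 103 OTX2 peaks (0.971%, whole list 2.45%). They were also found at 3 of 24 SOX2 peaks of EpiSCs (12.5%, 4.34 to 31.0%, whole list 3.14%), at Eomes, Gata6 and Lhx1. Without activin they were found at 1 of 25 SOX2 peaks (4%, 0.710 to 19.5%, whole list 2.92%), so the higher EpiSC share rests on few peaks. OTX2 peaks at the 10 genes thus held GGATTA less often than OTX2 peaks in general, though only narrowly outside the interval without activin. For GGTAAT the intervals included the whole-list shares. The lower share was not particular to GGATTA. A SOX2 sequence was found at 29.1% of these OTX2 peaks in EpiSCs (21.2 to 38.5%), compared with 47.6% over the whole list. Without activin it was 40.2% (30.8 to 50.4%), compared with 51.8%. Shares of the sequences over the windows of all protein-coding genes were not computed. OTX2 peaks at the 10 genes also overlapped ZIC2 more often, and a link between these differences was not tested.

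POU5F1 peaks at the 10 genes often lay at alternating purine and pyrimidine stretches of 20 bp or more. This search was chosen with earlier results of these data known. In EpiSCs, 16 of 30 held one (53.3%, 36.1 to 69.8%), compared with 29.6% of the whole POU5F1 list, and without activin 20 of 47 (42.6%, 29.5 to 56.7%), compared with 21.5%. The genes differed in this. All but 1 of the 5 POU5F1 peaks in EpiSCs held such a stretch at Eomes and at Gsc, 3 of 6 at T and 3 of 5 at Gata6, and none at Mixl1, Foxa2, Gata4 and Lhx1, which had 1 or 2 peaks each. Of the 22 EpiSC POU5F1 peaks without POU3F1, 13 held a stretch (59.1%), and of the 8 with POU3F1, 3 did (37.5%). Alternating repeats occur in many copies in the genome, and how reads were placed in them was not tested.

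Of 24 other genes of the streak, mesoderm and endoderm, all 24 had ZIC2 and OTX2 peaks in both cultures. In EpiSCs, 17 had a SOX2, 15 a POU5F1 and 7 a POU3F1 peak, and without activin 19, 19 and 6 did. In EpiSCs they had a median of 17 ZIC2, 9 OTX2, 1.5 SOX2, 1.5 POU5F1 and 0 POU3F1 peaks, compared with 12, 9, 2.5, 2.5 and 1 at the 10 genes. The most peaks over the 10 lists were at Wnt3 (98), Wnt3a (95) and Nodal (82), which encode Wnt and Nodal ligands. The fewest were at Kdr (23) and Cxcr4 (28), receptors of mesoderm and endoderm, and Hhex (40), a homeobox gene of anterior endoderm. At Wnt3, 36 and 31 of the 98 were ZIC2 peaks and 14 and 11 OTX2 peaks, with 0 POU5F1 or POU3F1 peaks. By the rule above, OTX2 was higher in EpiSCs at 3 of the 24 genes (Fgf8, Cdx2 and Lefty1), against 7.48% of all genes. POU5F1 was higher without activin at 3 (Wnt3a, Dkk1 and Pdgfra), against 33.4%, and SOX2 at 2 (Msgn1 and Dkk1), against 16.9%.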

How the data were processed

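ChIP-seq peaks of 5 biotin-tagged factors in 2 cultures of EpiSCs, 1 library each, were read from the peak lists the authors deposited. The authors placed the reads on mm9 using Bowtie2. Their peak caller was MACS1.4, run against sequenced input with a band width of 150 bases. The deposited score is −10 log10 of the p-value and depends on depth, which is not in these lists. The series held a single input library, from EpiSCs, and none from activin-free culture. The input library was not analysed here. Peaks were used as listed and assigned by midpoint to gene bodies with 50 kb on either side (GENCODE vM1 on NCBIM37, which is mm9; chromosomes 1 to 19, X and Y). Overlap needed 1 bp. Sequences were read from NCBIM37, and 1 peak and its sequence are not reported here.

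By rule all 10 genes were named, with the highest-scoring peak of each list and the site with most factors, not all of which are printed, and of 24 other genes the 3 with most and 3 with fewest peaks. The overlap share in the windows of all genes was added after the data were seen, and the members and lists were chosen with earlier results of these data known. With 1 library per group no test was run. Shares have 95% Wilson intervals, which cover counting error only. Alternatives were windows of 10 and 100 kb or centred on the gene start, a score of at least 100, the top 50000 peaks, assignment by any base, merging under 150 bp, 50% reciprocal overlap, division by list size and summed width. Counting steps were tested on simulated peaks. Python 3.11.15, numpy 2.4.6, scipy 1.17.1 and matplotlib 3.10.9 were used.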

Additional observations from a re-analysis of the deposited data

How the results depend on the processing

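The counts of peaks at the 10 genes depend on the window and on the number of peaks kept. With 10 kb on either side there were 121 peaks in EpiSCs and 120 without activin, with 100 kb 484 and 493, and with the 50000 highest-scoring peaks of every list 172 and 155. The share of EpiSC peaks found again without activin stayed between 79.5% and 85.6% under 6 of the 7 alternatives and was 77.1% when 50% of both peaks had to overlap. The share of ZIC2 peaks overlapped by OTX2 was 38.6% in EpiSCs and 35.7% without activin within 10 kb, and 10.7% and 14.2% under the 50% overlap, compared with 4.61% and 3.34% over the whole ZIC2 list. The pairs of gene and factor higher without activin numbered 1 within 10 kb (POU5F1 at Cer1), 7 within 100 kb and 1 with the top 50000 peaks (OTX2 at Gata6, which is none of the 3). With a score of at least 100 there were 3, 2 of them shared with the 3 reported, and POU3F1 at Eomes was not among them. The pairs higher in EpiSCs numbered 0 within 10 kb, 4 after division by the list size and 0 by summed width, and with 100 kb, a score of at least 100 or the top 50000 peaks the single pair was not OTX2 at T. With the window centred on the gene start, 14 of 100 counts moved by more than 1.5 times, 7 of them at Gata4, whose peaks in all lists numbered 103 with the gene body window and 51 with the centred one. No paired analysis was possible because each group holds 1 library.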
